A study of Homo sapiens with 6 samples.

Results

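The cGAS-STING DNA sensing pathway was examined through 9 genes that were chosen by name from the 37887 rows of the deposited count table: CGAS, TMEM173 (the symbol used there for STING), TBK1, IKBKE, IFI16, TREX1, AIM2, ENPP1 and IFNB1. All 9 had a row. The cells were BT-549, an established TNBC line, sequenced as poly(A) RNA in 3 control libraries (shCTL) and 3 libraries of cells silenced for PBRM1 (shPBRM1), the polybromo subunit of the PBAF chromatin remodeling complex. In the titles, the groups are a control shRNA and an shRNA against PBRM1. The treatment labels give DMSO for the shCTL libraries and DOX for the shPBRM1 libraries, and the series design describes 1 tet-PBRM1shRNA line, selected in puromycin, that received 0.1% DMSO or 500 ng/ml DOX. By that account the shCTL cells carried the uninduced PBRM1 hairpin. DOX and the silencing cannot be told apart in these libraries, and 1 hairpin was profiled. By replicate number, the shCTL libraries held 36429395, 47996676 and 49784336 counts and the shPBRM1 libraries 60221790, 40035400 and 65096297. The replicates were cultures grown in triplicate, so the p-values measure the spread between these cultures.

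In this pathway, double-stranded DNA outside the nucleus or mitochondria is bound by cGAS, which makes the cyclic dinucleotide cGAMP. cGAMP binds STING in the endoplasmic reticulum, and STING then moves toward the Golgi and recruits the kinases TBK1 and IKKε, which phosphorylate the transcription factor IRF3 and switch on IFN-β and other antiviral genes. The pathway is held back by TREX1, which degrades DNA in the cytosol, and by ENPP1, which hydrolyzes cGAMP outside the cell, and in tumor cells it is known for linking DNA damage to type I IFN.

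PBRM1 was checked first, since it was the silenced gene. Its counts were 5870, 7619 and 8118 in shCTL and 2598, 1591 and 2657 in shPBRM1, or 158 ± 2.30 and 41.9 ± 1.22 CPM (normalized counts scaled to library size, SD, n = 3). All 3 shPBRM1 libraries were below all 3 shCTL libraries. The line was checked against its markers. VIM, a mesenchymal filament, stood at 620.5 CPM in shCTL and 769.8 CPM in shPBRM1, and SPARC, a secreted matrix protein, at 3893 and 3021 CPM. FN1, or fibronectin, fell from 553.9 to 220.9 CPM (log2 fold change -1.33, adjusted p = 1.05e-17, edgeR's quasi-likelihood test), while the EMT factor ZEB1 fell by 0.55 and the cadherin CDH2 rose by 0.54 on the log2 scale. ESR1 had at most 2 counts in any library and PGR at most 12 (hormone receptors that TNBC lacks), whereas ERBB2 was present at 51.3 ± 1.1 CPM in shCTL and 50.02 ± 0.431 CPM in shPBRM1 (SD, n = 3). In bulk RNA, fewer cells expressing a gene and less RNA per cell cannot be told apart.

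The DNA just upstream of the genes is shown for the members whose changes differ most, to set the letters that IFN regulatory factors (IRFs) recognize beside the expression values. Promoter windows from RefSeq (GRCh38.p14) were found for 7 of the 9 members (not CGAS or TMEM173), in 8 windows, and the 250 bases before each start were searched on both strands. An IRF core (AANNGAAA) was present in 5 of the 8 windows, both of IFI16 and those of IFNB1, AIM2 and IKBKE. Of 35116 RefSeq windows of the same length, 20.3% held it. The longer IFN-stimulated response element (GAAA repeated after any 2 bases), which overlaps the core, was found for AIM2 alone and in 3.02% of all windows. A κB letter string (GGG, any 3 bases, TTCC) occurred for IFNB1 and TREX1 and in 5.67% of all windows. ENPP1 had none of these 3 strings in its window. In the windows printed here, capitals mark each IRF core or κB match, and bases in annotated exons were searched but are not printed. The IFI16 window is chr1:159009657-159009891 on the plus strand and precedes a start inside the annotated gene. Those of IFNB1 (chr9:21077964-21078192, minus strand) and ENPP1 (chr6:131807770-131808015, plus strand) end at the annotated gene.
IFI16: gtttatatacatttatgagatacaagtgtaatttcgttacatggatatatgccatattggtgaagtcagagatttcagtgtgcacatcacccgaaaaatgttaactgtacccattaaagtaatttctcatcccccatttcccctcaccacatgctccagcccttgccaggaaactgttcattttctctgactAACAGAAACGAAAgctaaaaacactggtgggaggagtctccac
IFNB1: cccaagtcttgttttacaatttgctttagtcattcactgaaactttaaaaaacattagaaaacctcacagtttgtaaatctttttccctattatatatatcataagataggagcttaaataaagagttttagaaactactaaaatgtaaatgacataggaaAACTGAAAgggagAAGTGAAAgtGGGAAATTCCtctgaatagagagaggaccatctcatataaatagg
ENPP1: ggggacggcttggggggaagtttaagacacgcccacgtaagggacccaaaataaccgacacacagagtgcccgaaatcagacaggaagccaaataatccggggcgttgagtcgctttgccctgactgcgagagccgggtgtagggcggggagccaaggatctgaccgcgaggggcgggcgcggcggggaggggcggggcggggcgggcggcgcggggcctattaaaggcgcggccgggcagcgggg
In IFI16, the pair of overlapping cores began 58 and 53 bases before that start. In IFNB1, the cores began 89 and 76 bases and the κB string 66 bases before the start, the region known as the IFN-β enhancer. A match is a string of letters and not a measured binding site, since these data hold no measure of binding.

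Across the 9 genes, expression of STING, IFI16 and IFNB1 was decreased more than 2-fold in shPBRM1 cells, and expression of ENPP1 was increased about 2-fold. CGAS and IKBKE were decreased by less than 2-fold, TBK1 did not pass the test, and AIM2 and TREX1 had too few counts to be tested. Of the 7 tested members, 5 were lower at an adjusted p under 0.05, where 33.2% of all 15450 tested genes were lower, and 1 was higher, where 31.5% of all tested genes were higher. With a fold change over 2 as well, 3 were lower, against 9.68% of tested genes, and 1 was higher, against 2.87%. In 6 of the 7 the normalized levels of the groups did not overlap, as in 68.3% of all tested genes. IFNB1 passed the filter on low counts through its shCTL libraries alone, so its place in these counts is a description. The median log2 fold change was -0.63 over the 7 members, IFNB1 included, and is a description for the same reason. Over all tested genes it was -0.01, with the middle 50% of genes between -0.40 and 0.31.

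**Figure D1:**
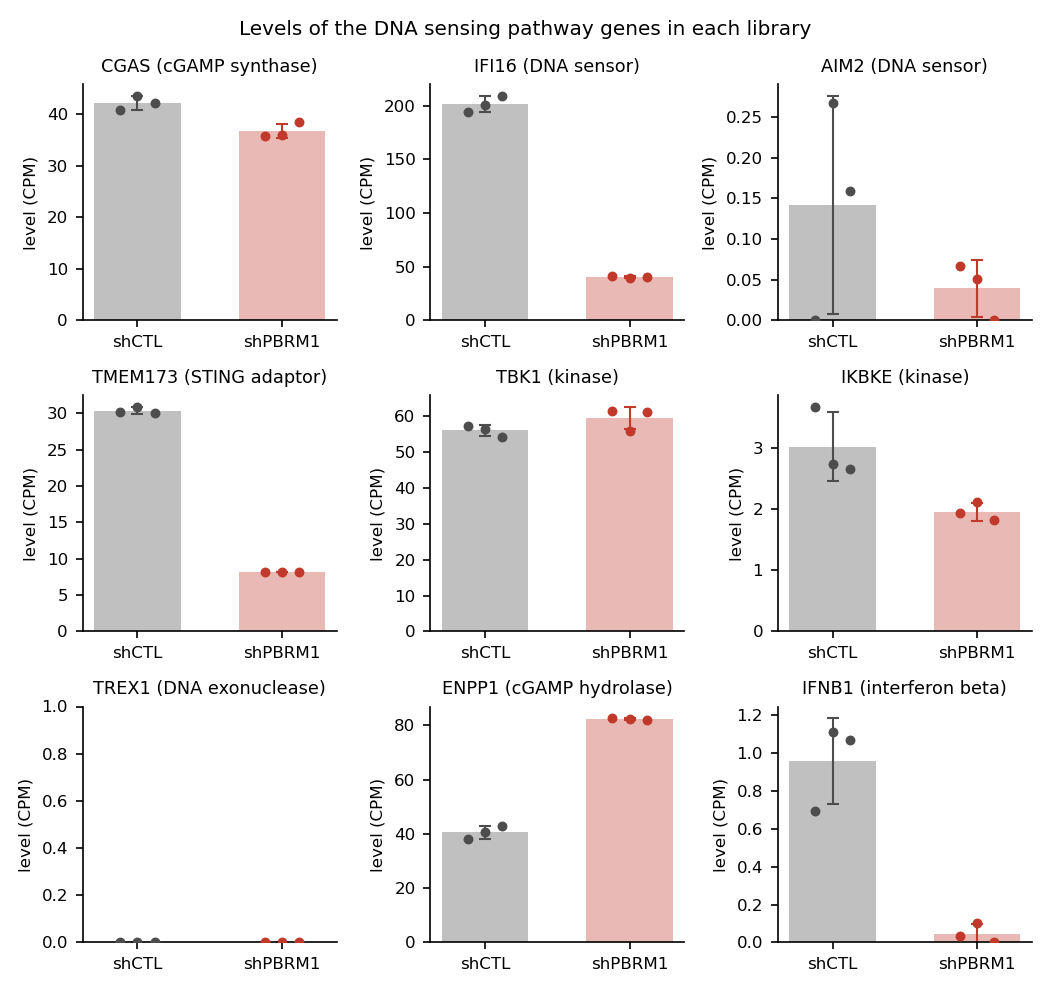
Normalized expression of the 9 genes in CPM (linear axis from 0), with bars for the mean of each group, error bars for the SD (n = 3) and points for single libraries. STING (TMEM173), IFI16 and IFNB1 were lower in all 3 shPBRM1 libraries, ENPP1 was higher in all 3, and TREX1 was at 0 throughout.

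The sensors were considered first. CGAS (chr6:73413515-73452276, minus strand; ENSG00000164430.15), the enzyme that makes cGAMP, had levels of 40.7, 43.5 and 42.2 CPM in shCTL and 35.8, 35.97 and 38.4 CPM in shPBRM1. All shPBRM1 values lay below all shCTL values, by a small margin. The mean was 42.1 ± 1.39 CPM in shCTL and 36.7 ± 1.43 CPM in shPBRM1 (SD, n = 3), or 87.1% of the control level. This decrease had a log2 fold change of -0.20 (SE 0.042, adjusted p = 0.00126, edgeR's quasi-likelihood test) and fell inside the middle 50% of all tested genes. Counting by strand was not stated, and 4.33% of CGAS exon bases are shared with DDX43.

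IFI16 (chr1:158999968-159055155, plus strand; ENSG00000163565.18) encodes a PYHIN family protein that binds DNA, mainly in the nucleus, and can cooperate with STING. Its counts were 7236, 9755 and 10547 in shCTL and 2478, 1529 and 2570 in shPBRM1. In CPM these were 193.9, 200.7 and 209.1 against 41.3, 39.3 and 40.3. The groups were far apart, and the shPBRM1 libraries varied little among themselves. IFI16 was 4.99-fold lower in shPBRM1 cells, with a log2 fold change of -2.32 (SE 0.038, adjusted p = 1.73e-23, edgeR's quasi-likelihood test). The log2 ratios of libraries with the same replicate number were -2.23, -2.35 and -2.37. None of its exon bases are shared with another gene.

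AIM2 (chr1:159062484-159147096, minus strand; ENSG00000163568.14), the PYHIN sensor that assembles an inflammasome, lies next to IFI16 and was close to the limit of detection. Its counts were 0, 13 and 8 in shCTL and 4, 2 and 0 in shPBRM1. The groups overlapped, with a library at 0 in each. A floor of 3 counts corresponds to between 0.0471 and 0.0804 CPM in these libraries, for counting error only. Summed over libraries, 21 counts stood against 6, a level 4.18-fold lower in shPBRM1 with a 95% exact interval of 1.63 to 12.6 that covers counting error only. When AIM2 was tested without the filter on low counts, it did not pass (log2 fold change -1.90, adjusted p = 0.116, edgeR's quasi-likelihood test).

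STING, the adaptor that receives cGAMP, is listed as TMEM173 (chr5:139475534-139482935, minus strand; ENSG00000184584.12). Its counts were 1124, 1501 and 1515 in shCTL and 488, 320 and 520 in shPBRM1. After normalization these became 30.1, 30.9 and 30.0 CPM in shCTL, and 8.13, 8.22 and 8.16 CPM in shPBRM1. The 3 libraries within each group were nearly alike and the groups did not overlap. STING expression in shPBRM1 cells was 26.9% of that in shCTL cells (30.3 ± 0.463 CPM to 8.17 ± 0.0478 CPM, SD, n = 3). The log2 fold change of -1.89 (SE 0.014, adjusted p = 2.69e-17, edgeR's quasi-likelihood test) stands beside -1.91 for PBRM1 itself (SE 0.027, adjusted p = 9.98e-23). No exon bases of TMEM173 are shared.

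Of the kinases, IKBKE was lower and TBK1 did not pass the test. TBK1 (chr12:64451880-64502108, plus strand; ENSG00000183735.9), the main IRF3 kinase, had 57.3, 56.5 and 54.3 CPM in shCTL and 61.3, 55.9 and 61.2 CPM in shPBRM1. The shPBRM1 replicate 2 library lay within the shCTL range and the other libraries of that group lay above it. Its log2 fold change was 0.09 (SE 0.050, adjusted p = 0.0743, edgeR's quasi-likelihood test). Without that library the log2 fold change was 0.14 with an adjusted p of 0.0065, so the call rests on shPBRM1 replicate 2. In the annotation, 14.7% of TBK1 exon bases overlap AC135279.3 on the opposite strand.

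IKBKE (chr1:206470476-206496889, plus strand; ENSG00000263528.7) encodes IKKε, the inducible relative of TBK1, and was expressed at a low level. Its levels were 3.67, 2.74 and 2.66 CPM in shCTL and 1.93, 2.11 and 1.82 CPM in shPBRM1. The groups did not overlap, and shCTL replicate 1 stood above the other shCTL libraries. The level in shPBRM1 cells was 64.6% of that in shCTL cells, with a log2 fold change of -0.63 (SE 0.16, adjusted p = 0.00185, edgeR's quasi-likelihood test). The same-numbered pairs gave log2 ratios of -0.91, -0.37 and -0.54, a spread wider than that of IFI16 or STING. Of its exon bases, 4.12% are shared with C1orf147.

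Of the enzymes that limit the pathway, ENPP1 was increased. ENPP1 (chr6:131808016-131895155, plus strand; ENSG00000197594.12), the ectoenzyme that hydrolyzes cGAMP and ATP, had counts of 1419, 1981 and 2156 in shCTL and 4968, 3207 and 5230 in shPBRM1. These were 38.0, 40.8 and 42.8 CPM, against 82.8, 82.4 and 82.1 CPM. All shPBRM1 libraries were higher than all shCTL libraries. The log2 fold change was 1.02 (SE 0.049, adjusted p = 8.81e-16, edgeR's quasi-likelihood test), a 2.03-fold increase that sits at the 2-fold threshold. Without shCTL replicate 1 it was 0.98, below that threshold.

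TREX1 (chr3:48465811-48467645, plus strand; ENSG00000213689.13), the main exonuclease that clears DNA from the cytosol, had 0 counts in all 6 libraries. All 1515 of its exon bases are also exon bases of ATRIP, an ATR partner, on the same strand. Of 61 protein-coding genes in the table with every exon base shared in this way, 57 (93.4%) had 0 counts in all libraries, compared with 14.5% of 16314 genes that share none. The value of 0 therefore gives no measure of TREX1 RNA. ATRIP, which shares 27.9% of its own exon bases with TREX1, had 13.9 ± 0.725 CPM in shCTL and 14.4 ± 0.582 CPM in shPBRM1 (SD, n = 3) and did not pass the test (log2 fold change 0.05, adjusted p = 0.565).

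IFNB1 (chr9:21077105-21077963, minus strand; ENSG00000171855.6), the IFN-β gene and the output of the pathway, was low in shCTL and near the floor in shPBRM1. Its counts were 26, 54 and 54 in shCTL and 2, 4 and 0 in shPBRM1. Every shCTL library was above every shPBRM1 library, and 1 shPBRM1 library had none. Over the summed counts, 134 against 6, the level was 26.6-fold lower in shPBRM1, with a 95% exact interval of 11.9 to 73.9 for counting error. The fitted log2 fold change was -4.60 (SE 0.57, adjusted p = 1.32e-07, edgeR's quasi-likelihood test), a test that IFNB1 entered through its shCTL libraries alone, and is given as a description. It ranged from -5.70 to -3.92 when single libraries were left out.

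**Figure D2:**
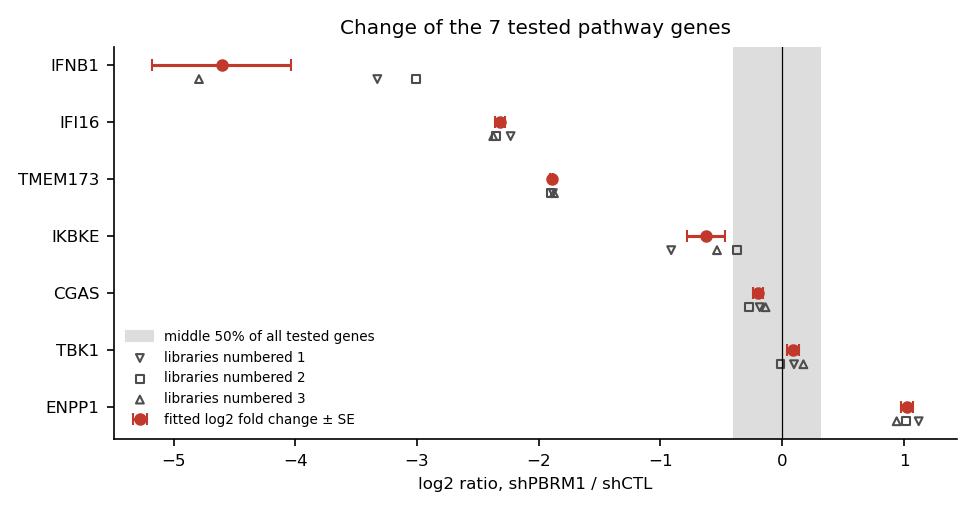
Change of the 7 tested genes as log2 ratios of shPBRM1 to shCTL, with filled circles for the fitted log2 fold change. Error bars are the SE and open symbols are pairs of libraries with the same replicate number, both from log2 CPM with 2 counts added. The grey band is the middle 50% of all 15450 tested genes (-0.40 to 0.31). CGAS and TBK1 lie inside it, IFNB1, IFI16 and STING lie far below it, and ENPP1 lies above it.

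TREX1 was left out of an order of levels, since its counts give no measure of it. The order of the other 8 genes by level per length (CPM per kb of merged exons) differed between the groups. In shCTL cells IFI16 led with 38.0 ± 1.44 CPM per kb (SD, n = 3), followed by TBK1 (11.8), CGAS (10.1), STING (7.88) and ENPP1 (4.07). IFNB1 (1.12) and IKBKE (0.797) overlapped in their libraries, and AIM2 (0.0707) came last. In shPBRM1 cells TBK1 led with 12.5 ± 0.648 CPM per kb (SD, n = 3), followed by CGAS (8.84), ENPP1 (8.27) and IFI16 (7.61). STING was at 2.12 CPM per kb, below ENPP1. IKBKE (0.515) came next, and IFNB1 (0.0528) and AIM2 (0.0196) overlapped. Other neighbors in either order did not overlap. ENPP1 thus stood below STING per length in shCTL and above it in shPBRM1. In CPM, ENPP1 was above STING in shCTL as well (40.5 against 30.3). The crossing therefore depends on the merged exon lengths, 9959 bases for ENPP1 and 3850 for STING.

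**Figure D3:**
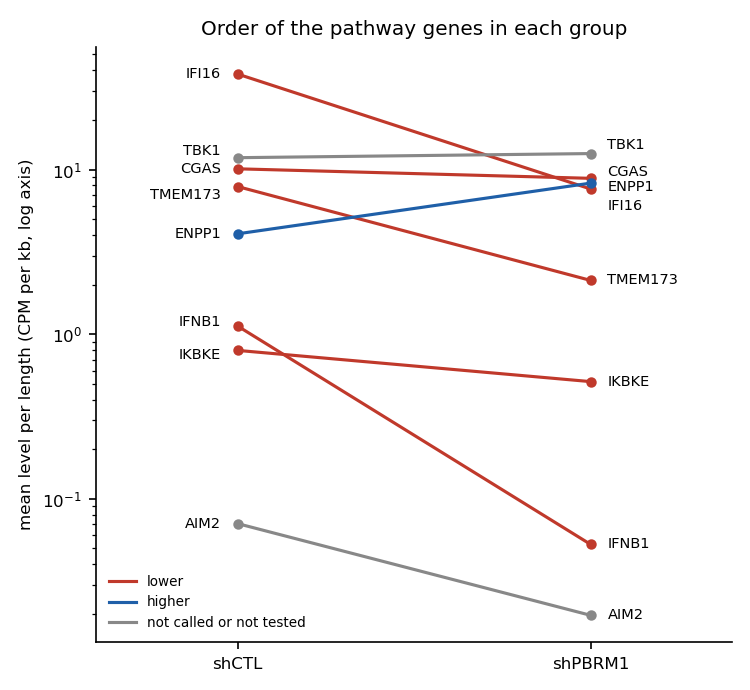
Mean level per length (CPM per kb, log axis) of 8 of the genes in each group, joined by lines that are red for genes called lower, blue for genes called higher and grey for genes not called or not tested. IFI16 moved from 38.0 to 7.61 and ENPP1 from 4.07 to 8.27. TREX1 is not drawn.

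To place these genes, 115 other genes of DNA sensing were listed in 7 roles, of which 98 were tested. Of these 98, 43 were lower (43.9%) and 32 were higher (32.7%), and 23 did not pass the test. Past a 2-fold change, 16 were lower (16.3%) and 1 was higher (1.02%), beside 9.68% and 2.87% of all tested genes. These counts are a description, since 4 of the 16 (P2RX7, TRIM38, CASP1 and CARD16) passed the filter on low counts through shCTL alone. The median log2 fold change of the list, with these 4 genes included, was -0.10. The shares lower and higher without a fold minimum were near those of all tested genes in the upward direction and above them in the downward direction.

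Among the other DNA sensors, 5 of 12 tested genes were lower and 6 were higher, beside 33.2% and 31.5% of all tested genes, and none passed the 2-fold minimum. The genes that rose included the subunits of DNA-PK, which binds broken DNA ends and can act as a DNA sensor. PRKDC, its catalytic subunit, rose from 1792 ± 52.2 CPM to 2336 ± 106 CPM (SD, n = 3; log2 fold change 0.38, adjusted p = 1.26e-09, edgeR's quasi-likelihood test), and XRCC5 and XRCC6, which encode Ku80 and Ku70, had log2 fold changes of 0.54 and 0.57. HMGB1, an abundant chromatin protein that bends DNA, rose from 310.5 to 619.8 CPM, with a log2 fold change of 0.997 that stopped just short of 2-fold. The genes that fell included the RNA polymerase III subunits POLR3A, POLR3B and POLR3C, which transcribe AT-rich DNA into an RNA ligand (-0.22, -0.29 and -0.55). ZBP1, a sensor of Z-form nucleic acids, had 4, 14 and 10 counts in shCTL and 0 in each shPBRM1 library, at least 3.41-fold lower against a floor of 3 counts per library, and was not tested.

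Of the STING partners and trafficking proteins, 4 of 14 were lower and 7 were higher (33.2% and 31.5% of all tested genes). RHBDF2, which encodes the iRhom2 protein that aids STING traffic, fell from 14.7 ± 0.480 CPM to 6.67 ± 0.311 CPM (SD, n = 3; log2 fold change -1.14, adjusted p = 1.6e-11, edgeR's quasi-likelihood test). NPC1, the lysosomal cholesterol transporter, fell from 354 ± 6.21 CPM to 143 ± 3.41 CPM (SD, n = 3; -1.31, adjusted p = 9.13e-19). SURF4, a cargo receptor that returns STING to the endoplasmic reticulum, did not pass (0.05, adjusted p = 0.239). SSR2, a subunit of the translocon-associated complex and the gene of this role with the highest mean CPM over both groups, rose from 341.7 ± 8.69 CPM to 567.4 ± 32.9 CPM (SD, n = 3; 0.73, adjusted p = 1.1e-12).

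The kinase scaffolds and transcription factors had 8 lower and 2 higher of 13 (33.2% and 31.5% of all tested genes). DDX3X, an RNA helicase that binds the kinases and the gene of this role with the highest mean CPM, rose from 363 to 406 CPM (log2 fold change 0.16, adjusted p = 0.00105). IRF3, the factor that TBK1 phosphorylates, was at 52.3 ± 1.36 CPM in shCTL and 55.1 ± 4.83 CPM in shPBRM1 (SD, n = 3), with overlapping groups, and did not pass (log2 fold change 0.07, adjusted p = 0.232, edgeR's quasi-likelihood test). IRF7, the IFN-inducible relative, had counts of 508, 660 and 366 in shCTL and 80, 54 and 68 in shPBRM1. All shPBRM1 libraries were below all shCTL libraries, with shCTL replicate 3 the lowest of its group, and the log2 fold change was -3.19 (SE 0.32, adjusted p = 1.38e-12). The NF-κB subunits RELA and NFKB1 fell by 0.38 and 0.18 on the log2 scale. The TBK1 scaffolds TANK, AZI2 and TBKBP1 had log2 fold changes of -0.27, -0.29 and -0.41, and all 3 were called lower.

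**Figure D4:**
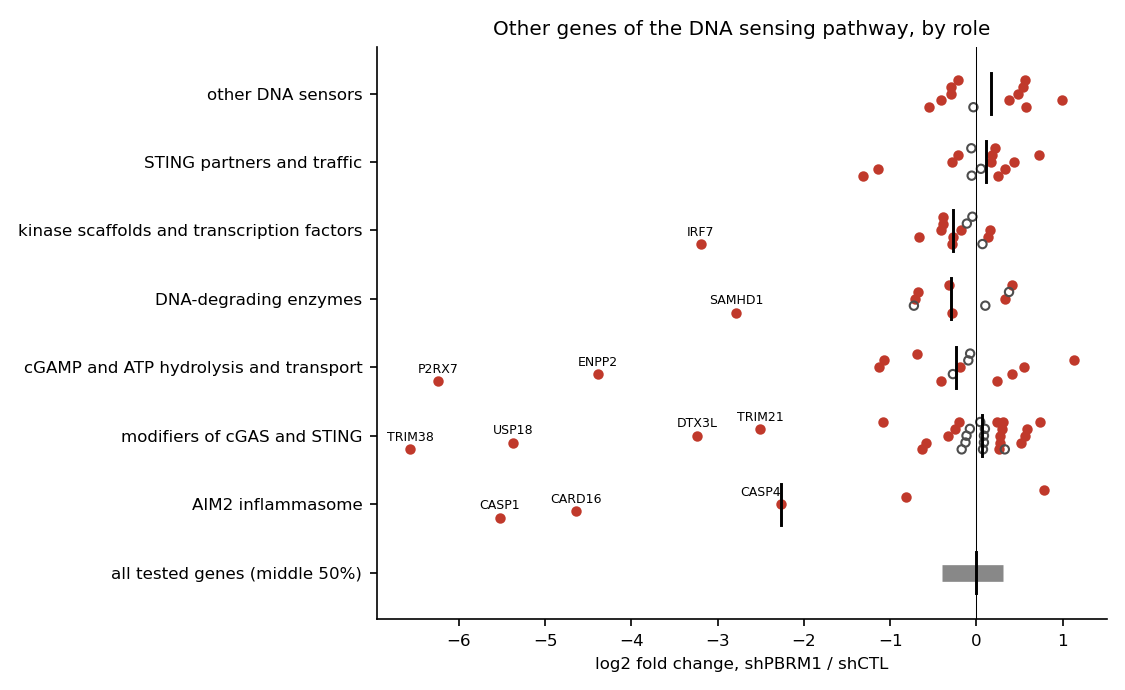
Log2 fold changes (shPBRM1 over shCTL) of the 98 tested genes of the wider list by role, with filled points for genes called at an adjusted p under 0.05, open points for genes not called, a black line for each median and grey for the middle 50% of all tested genes. Points far to the low side occur in several roles, and ENPP4 is the only listed gene called higher past 2-fold.

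In the group of enzymes that degrade DNA or its precursors, 5 of 10 were lower and 2 were higher, against 33.2% and 31.5% of all tested genes. SAMHD1, a dNTP hydrolase that also restrains cytosolic DNA at stalled forks, had counts of 12187, 15872 and 17019 in shCTL and 2830, 1916 and 3025 in shPBRM1. The groups did not overlap, and the means were 330.2 ± 6.32 CPM and 47.9 ± 1.13 CPM (SD, n = 3; log2 fold change -2.79, SE 0.025, adjusted p = 4.85e-25, edgeR's quasi-likelihood test). PLD3, a lysosomal exonuclease, fell from 300.2 to 182.9 CPM and DNASE2, the lysosomal endonuclease, from 142 to 114 CPM.

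The role of cGAMP and ATP hydrolysis and transport included relatives of ENPP1. Here 7 of 14 were lower and 4 were higher, beside 33.2% and 31.5% of all tested genes, with 4 lower and 1 higher past 2-fold, while 9.68% and 2.87% of all tested genes were. ENPP4, which hydrolyzes dinucleotides on the endothelium, rose from 19.9 ± 0.199 CPM to 43.6 ± 1.16 CPM (SD, n = 3; log2 fold change 1.13, adjusted p = 1.01e-14, edgeR's quasi-likelihood test). ENPP2, or autotaxin, which makes lysophosphatidic acid and is a relative by sequence, fell from 18.9 ± 0.631 CPM to 0.906 ± 0.0164 CPM (SD, n = 3; -4.39, adjusted p = 2.8e-20). P2RX7, the ATP-gated channel through which cGAMP may enter, had counts of 176, 249 and 237 in shCTL and 3, 4 and 3 in shPBRM1 (-6.24, adjusted p = 8.95e-16). P2RX7 passed the filter on low counts through shCTL alone, so its place among the 4 is a description. LRRC8C, a subunit of the volume-regulated anion channel that passes cGAMP, fell from 37.1 ± 1.05 CPM to 17.6 ± 0.699 CPM (SD, n = 3; -1.07, adjusted p = 1.12e-13). SLC46A1, the proton-coupled folate transporter, fell from 1.61 to 0.736 CPM (-1.12, adjusted p = 3.76e-04). SLC19A1, a folate carrier that also imports cGAMP, rose by 0.56 on the log2 scale. NT5E, or CD73, which had the highest mean CPM here, fell from 602 to 451 CPM.

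Of the modifiers of cGAS and STING, 10 of 30 were lower, 10 were higher and 10 did not pass, beside 33.2% lower and 31.5% higher among all tested genes. With the replicate number as a block, 11 were lower, 13 were higher and 6 did not pass. The 5 past 2-fold were all lower, as were 9.68% of all tested genes, with 2.87% higher past 2-fold. TRIM38, a SUMO ligase for cGAS and STING, had counts of 548, 721 and 750 in shCTL and 11, 6 and 8 in shPBRM1 (log2 fold change -6.57, SE 0.12, adjusted p = 1.67e-20, edgeR's quasi-likelihood test). TRIM38 passed the filter on low counts through shCTL alone, so its place among the 5 is a description. USP18, the ISG15 protease that brings a deubiquitinase to STING, fell from 41.5 ± 1.11 CPM to 1.01 ± 0.244 CPM (SD, n = 3; -5.37, adjusted p = 3.47e-22). DTX3L, the ubiquitin ligase partner of PARP9, fell from 794 ± 24.8 CPM to 84.1 ± 3.70 CPM (SD, n = 3; -3.24, adjusted p = 1.15e-24). The ubiquitin ligases TRIM21 and TRIM56 had log2 fold changes of -2.51 (adjusted p = 1.67e-18) and -1.08 (adjusted p = 2.79e-17). G3BP1, a stress granule protein that primes cGAS for DNA and the gene of this role with the highest mean CPM over both groups, rose from 660 to 800.4 CPM (0.28, adjusted p = 5.01e-07), and AURKB, a mitotic kinase that phosphorylates cGAS, rose from 47.7 to 79.7 CPM.

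Genes of the AIM2 inflammasome were tested in 5 of 10 cases, of which 4 were lower and 3 were lower past 2-fold, beside 33.2% and 9.68% of all tested genes. As 2 of these 3, CASP1 and CARD16, passed the filter through shCTL alone, the counts are a description. CASP1, the protease of canonical inflammasomes, had counts of 312, 385 and 397 in shCTL and 16, 6 and 6 in shPBRM1 (log2 fold change -5.53, SE 0.35, adjusted p = 8.67e-17, edgeR's quasi-likelihood test). CASP4, which senses cytosolic lipopolysaccharide, fell from 25.4 ± 0.359 CPM to 5.27 ± 0.303 CPM (SD, n = 3; -2.26, adjusted p = 1.11e-17). CARD16, a CARD-only relative of CASP1, had 35, 58 and 39 counts against 0, 0 and 6 (-4.64, adjusted p = 2.36e-07), and its reads may be split with the similar CASP1 and CARD17. GSDMD, the pore former, fell from 13.2 to 7.49 CPM, whereas IL1B rose from 0.546 to 0.948 CPM (0.79, adjusted p = 0.0155).

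Downstream of IFNB1, the other type I and III IFN genes gave few counts. Of 19 listed genes, 11 had 0 counts in all 6 libraries and 1 was tested. IFNE, an epithelial type I IFN, had 19, 22 and 20 counts in shCTL and 20, 8 and 34 in shPBRM1, with overlapping groups, and did not pass (log2 fold change -0.28, adjusted p = 0.55, edgeR's quasi-likelihood test). It reached the level of the low-count filter in 3 shCTL and 2 shPBRM1 libraries. IFNL1, a type III IFN, had 10, 20 and 5 counts in shCTL and 0 in each shPBRM1 library, at least 4.47-fold lower against a floor of 3 counts per library. IFNA1 had 1, 4 and 2 counts in shCTL and 7, 4 and 6 in shPBRM1, close to that floor.

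Genes that IRF3 can induce directly were lower in 8 of 8 cases past 2-fold, with a median log2 fold change of -5.91, beside 9.68% of all tested genes lower past 2-fold. They were the chemokines CXCL10 (-6.88) and CCL5 (-4.29), the ubiquitin-like modifier ISG15 (-4.46), the exonuclease ISG20 (-2.48), the RNA-binding proteins IFIT1 (-6.17), IFIT2 (-5.64) and IFIT3 (-6.66), and OASL (-6.73), a RIG-I cofactor that also binds cGAS. These genes also respond to IFN itself, so their levels are no separate measure of IRF3 activity. CXCL10, with 2, 2 and 4 counts in shPBRM1, passed the filter on low counts through shCTL alone. Its place among the 8 and in their median is therefore a description.

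Leukocyte RNA was checked because several pathway genes are abundant in immune cells. Over 12 leukocyte markers the summed level was 1.69, 1.87 and 1.88 CPM in shCTL and 1.35, 1.72 and 1.26 CPM in shPBRM1. CD3E, CD3D, CD2 and MS4A1, which define T and B cells, had 0 counts in every library. PTPRC, or CD45, the highest of the 12 by CPM in shCTL, fell from 0.797 to 0.132 CPM (log2 fold change -2.55, adjusted p = 6.35e-06, edgeR's quasi-likelihood test), and it passed the filter on low counts through shCTL alone. CD14 rose from 0.331 to 0.678 CPM (1.004, adjusted p = 0.016), and CSF1R did not pass (-0.20, adjusted p = 0.652). The part of these markers in the pathway values was not tested.

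Profiles most like those of the members with the largest called rise and fall were sought among tested genes that averaged 100 counts or more, by the Euclidean distance over the 6 libraries between log2 CPM values set relative to shCTL. For ENPP1, over 11540 genes, they were PIK3CD (distance 0.0911), SFRP1 (0.0921) and KIF11 (0.0934), with log2 fold changes of 1.02, 1.03 and 1.01. For IFNB1, over 11541 genes, they included ITPKB (0.997) and TLR3 (1.13), with log2 fold changes of -3.77 and -4.04. The distances were about an order larger for IFNB1, which had 0 to 54 counts a library.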

How the data were processed

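RNA-seq libraries (TruSeq Stranded mRNA) of 3 shCTL and 3 shPBRM1 samples were analyzed. The values the authors deposited are raw counts for each gene symbol, not normalized. The submitters' processing notes name CASAVA 1.8.2, STAR 2.7.9a, featureCounts, DESeq2 1.24.0 and GRCh38.p7. The annotation and strand setting are not given in the sources used here. The titles gave each library its group and number. Counts were tested with edgeR 4.0.16 in R 4.3.3, using TMM normalization, filterByExpr (15450 of 37887 rows kept), the quasi-likelihood F-test and Benjamini-Hochberg adjustment over all tested genes. Genes with an adjusted p under 0.05 were called, and a fold change over 2 was counted separately. SEs and the log2 ratios of same-numbered libraries are from log2 CPM with 2 counts added, and the fitted log2 fold changes are not. At low counts, as for TRIM38 and IFNB1 in shPBRM1, the SE is therefore not the error of the fitted value. In all, 12608 rows were at 0 in all libraries, and 14 rows carry dates for symbols. Positions are from the GENCODE v29 annotation of GRCh38 and promoters from RefSeq.

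Same-numbered libraries deviated together from their group means, with r = 0.734, 0.593 and 0.419. For different numbers r was -0.671 to 0.464, over 5622 genes that averaged above 5 in log2 CPM. The value of 0.464 was for shPBRM1 replicate 3 with shCTL replicate 2, above the 0.419 with its own number. The numbers therefore do not settle the pairs. The main test left them out, and an alternative used them as a block. Alternatives were DESeq2 1.42.0, RLE factors, library size only, no filter, a mean of at least 50 counts, an adjusted p under 0.001, a replicate block and each library left out. Tests were checked on simulated counts. Named genes were the 9 members, PBRM1, the markers, listed genes called past 2-fold, the gene of each role with the highest mean CPM, and the 3 genes most like ENPP1 and IFNB1. Other genes named were chosen after their values were seen. Some results are not reported here. The members and lists were chosen with earlier results of these data known.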

Additional observations from a re-analysis of the deposited data

How the results depend on the processing

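STING, IFI16, CGAS and IKBKE remained lower and ENPP1 remained higher, past the adjusted p of 0.05, under every alternative that gave a value. CGAS ranged from -0.25 to -0.18 in log2 fold change with adjusted p up to 0.011, and IKBKE from -0.71 to -0.47 with adjusted p up to 0.0193. The replicate block changed no call among the members (CGAS -0.20, adjusted p = 0.000469; TBK1 0.09, adjusted p = 0.0589), and of the other listed genes it changed 4, all modifiers of cGAS and STING. IFNB1 was not tested at a mean of at least 50 counts. There 12506 genes were tested, of which 941 were lower and 270 higher past 2-fold. At an adjusted p under 0.001, 3 members were lower, as were 3658 of the 15450 tested genes. With library size only, where the median of all genes shifted to -0.06, 0 members were higher past 2-fold. With each library left out, TBK1 ranged from 0.066 to 0.136, members called higher from 1 to 2, members higher past 2-fold from 0 to 1 (ENPP1 without shCTL replicate 1), and listed genes higher past 2-fold from 1 to 2. That last count was also 2 with DESeq2 and with RLE factors. The cause of these shifts was not tested. No tested member changed direction under these alternatives. Depth limits AIM2, the IFN genes and IFNB1 in shPBRM1 cells.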

Other observations

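Several partners of the AIM2 inflammasome had counts at or near 0 in these libraries. PYCARD, the adaptor that joins AIM2 to CASP1, had 0, 3 and 3 counts in shCTL and 0 in each shPBRM1 library. In the annotation, 59.7% of PYCARD exon bases overlap PYCARD-AS1 on the opposite strand. Counting by strand was not stated, and the part of this overlap in the PYCARD counts was not tested. IL18, a cytokine that CASP1 matures, had 0, 6 and 4 counts in shCTL and 2, 2 and 8 in shPBRM1. CASP5 had 0, 2 and 1 counts in shCTL and none in shPBRM1, and CARD17 and CARD18 had none in any library.

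Exon sharing like that of TREX1 applied in part to other listed genes. RAD50, a subunit of the MRN complex, shares 79.7% of its exon bases with AC116366.3 on the same strand and had 250, 316 and 357 counts in shCTL and 281, 226 and 309 in shPBRM1. TREX2 shares 52.1% with HAUS7 and had at most 7 counts in any library. RNASEH2A, the catalytic subunit of RNase H2, shares 30.8% with THSD8 and had 18, 20 and 16 counts against 32, 22 and 30. For these genes the counts may not measure all of their RNA, and the part of exon sharing in them was not tested.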
